A study of Mus musculus with 435 samples.

Results

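The cytosolic ribosomal protein genes encode the protein parts of the ribosome that translates nuclear mRNAs. Members were taken by name: symbols in the array's gene table that start with Rpl or Rps and a digit, Rplp and a digit, or Rpsa, without the kinase genes of the Rps6k family, measured on at least 150 of the 435 arrays. The names matched 80 of the 17280 probe positions. Of these, 61 probes for 56 of the 13409 genes named on the array are members, 17 fell under 150 arrays and 2 were left out because the table gives them several genes (Rpl12 with Snora65, and Rpl36 with Rpl36-ps12). The members are 36 probes for large-subunit proteins, 17 for small-subunit proteins, 2 for the stalk (Rplp0, Rplp1) and 6 for genes of similar name that are copies or relatives of a core gene (Rpl3l, Rpl7l1, Rpl22l1, Rpl36al, Rps27l, Rps4l). Rpl5 holds 17 probe positions with the same source sequence, of which 6 are members. The array threshold fell between an Rpl5 probe with 151 arrays, inside, and another with 145, outside. Genes that are left without any member probe are Rplp2 (77 arrays), Rps13 (139), Rps18 (12), Rpl34 (43), Rpl38 (29) and Rpl39l (75).

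Each array compared liver RNA with a common reference, and the mice were of the inbred strain A/J (218 arrays) or C57 (217 arrays) and ate high-fat or low-fat food. The sample times are week 0, week 1 and weeks 3 to 11, which with strain and diet make 44 groups. Liver RNA carried Cy5 and the reference Cy3 on every array. The reference was a pool from 10 tissues of C57 mice in which liver and kidney have the largest shares, so liver was compared with a mixture that holds liver. Age, sex, diet composition, mouse identity and hybridisation date are not given in the sources used here. With no dye swap, a dye effect of a probe cannot be told apart from its level, and p-values between single arrays measure a spread that may be partly technical.

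A ribosome has a small subunit that reads the mRNA and a large subunit that joins the amino acids. On the large subunit a stalk of acidic proteins, Rplp0 with Rplp1 and Rplp2, recruits the elongation factors. Apart from the stalk dimers, each protein is present as a single copy per ribosome, and most are made from short, abundant mRNAs. Many of these mRNAs begin with a run of pyrimidines through which mTOR signalling sets their translation with little change in mRNA level. In liver, feeding and insulin raise ribosome production through this route. Some of the genes, such as Rplp0, Rpl13a and Rpl19, are widely used as stable references in liver qPCR. Ribosomal protein genes have many processed pseudogenes, so a spotted probe can bind transcripts of near-identical copies, and values of single genes are uncertain to that extent.

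The promoters of 3 members on which results turn are shown first: Rpl13a, whose low-fat levels differed between the strains by a call close to the threshold, Rpl11, among the members whose level was highest at the first week, and Rps16, among those whose level was lowest then. The stretches run from 80 bases before the annotated start to 20 after it on the coding strand, in RefSeq's GRCm38.p6. They are chr7:45128726-45128825 on the minus strand for Rpl13a, chr4:136053374-136053473 on the minus strand for Rpl11 and chr7:28350609-28350708 on the plus strand for Rps16. Capitals mark matches to the motifs searched. The one for ETS-type factors was spelled CCGGAAG. The one for the factor YY1 was spelled AAGATGG, which can share letters with the first. The TATA box was spelled TATAAA, and the pyrimidine motif of translational control was spelled CTTTCC.
Rpl13a: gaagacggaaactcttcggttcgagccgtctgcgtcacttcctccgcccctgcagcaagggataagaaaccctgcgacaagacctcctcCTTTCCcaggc
Rpl11: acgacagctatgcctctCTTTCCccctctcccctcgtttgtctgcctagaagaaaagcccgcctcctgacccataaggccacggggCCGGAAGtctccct
Rps16: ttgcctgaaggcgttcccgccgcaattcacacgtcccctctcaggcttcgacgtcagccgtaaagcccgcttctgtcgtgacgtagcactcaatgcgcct
The Rpl13a stretch has the pyrimidine motif just after its start, and the Rps16 stretch holds none of these motifs. The Rpl11 stretch has 1 ETS-type match just after its start and 1 CTTTCC match well before it. That CTTTCC lies outside the annotated mRNA, so it is a match of letters only.

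RefSeq windows of 300 bases (250 before to 50 after the start) were found for 47 of the 56 genes and searched on both strands. CTTTCC was present in 46.8% of these member windows and in 25.7% of all 17492 coding-gene windows. Counted on the coding strand from 20 bases before to 50 after the start, the shares were 25.5% and 3.03%. CCGGAAG was found in 38.3% of member windows against 11.9% of all, and AAGATGG in 14.9% against 6.37%. TATAAA was found in 8.51% against 13.3%. These are counts of letters and say nothing on whether a factor binds.

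Values are log2 ratios of liver over the reference, after each array was centred on its median over the probes tested, so 0 is the level of a typical probe on that array. The comparisons use 350 arrays in 36 groups over 9 weeks. Week 8 is left out, since 28 of its 40 arrays had a correlation under 0.15 with the median array of the series, and so are 4 such arrays of other weeks. Per group 8 to 10 arrays remained, with 2183 to 14920 probes measured per array. Of the 61 members 41, for 41 genes, were measured widely enough to be tested, in a fit of 7643 probes. The labelled tissue was checked on 7 hepatocyte marker genes, whose median level was 1.21. Skeletal muscle markers had a median of -1.83 and kidney markers one of -1.57.

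Most ribosomal protein probes lay below the typical probe of their array. Of the 61 member probes 46 were below 0, with a median level of -0.37. Among the 41 tested members 33 were below 0 and the median was -0.27, against 59.6% and -0.10 for all probes tested. Of the 41, 10 (24.4%) fell in the lowest decile of all probes, which lay under -0.67. Without centring the median was -0.32 (35 below 0, all probes -0.14) and after quantile normalization -0.28 (32 below 0, all probes -0.09). By role, over all 61 member probes, the median was -0.38 for the large subunit, -0.21 for the small subunit, -0.56 for the stalk pair and -0.20 for the relatives. The 36 large-subunit probes include 6 for Rpl5. Tested probes for mitochondrial ribosomal proteins, which build the separate ribosome of mitochondria, had a median of -0.23 (26 of 38 below 0). No test was made of these levels.

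Levels differed widely between members. Highest were Rpl7a (0.94 ± 0.32, SD of 9 weekly means or fewer where a week had no value), Rps26 (0.92 ± 0.47), a protein that contacts the mRNA near the exit site, Rpl29 (0.90 ± 0.29) and Rps3a1 (0.62 ± 0.25). None of these 4 passed the filter for testing, and the highest tested member was Rpl13 (0.51 ± 0.37). Lowest were Rpl37 (-1.60 ± 0.46), Rps16 (-1.33 ± 0.70), Rpl15 (-1.32 ± 0.45) and Rpl30 (-1.21 ± 0.57), of which Rps16 and Rpl30 were tested. As a ratio, Rpl7a was 1.91-fold above and Rpl37 3.03-fold below the typical probe. Neighbours in this order, such as Rpl7a, Rps26 and Rpl29, or Rps16 and Rpl15, lay closer together than their weekly spread, while the weekly means of Rpl7a (0.29 to 1.17) and Rpl37 (-2.16 to -0.97) did not overlap. A level depends on the probe as well as the mRNA, so these values are not amounts of one mRNA relative to another.

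**Figure D1:**
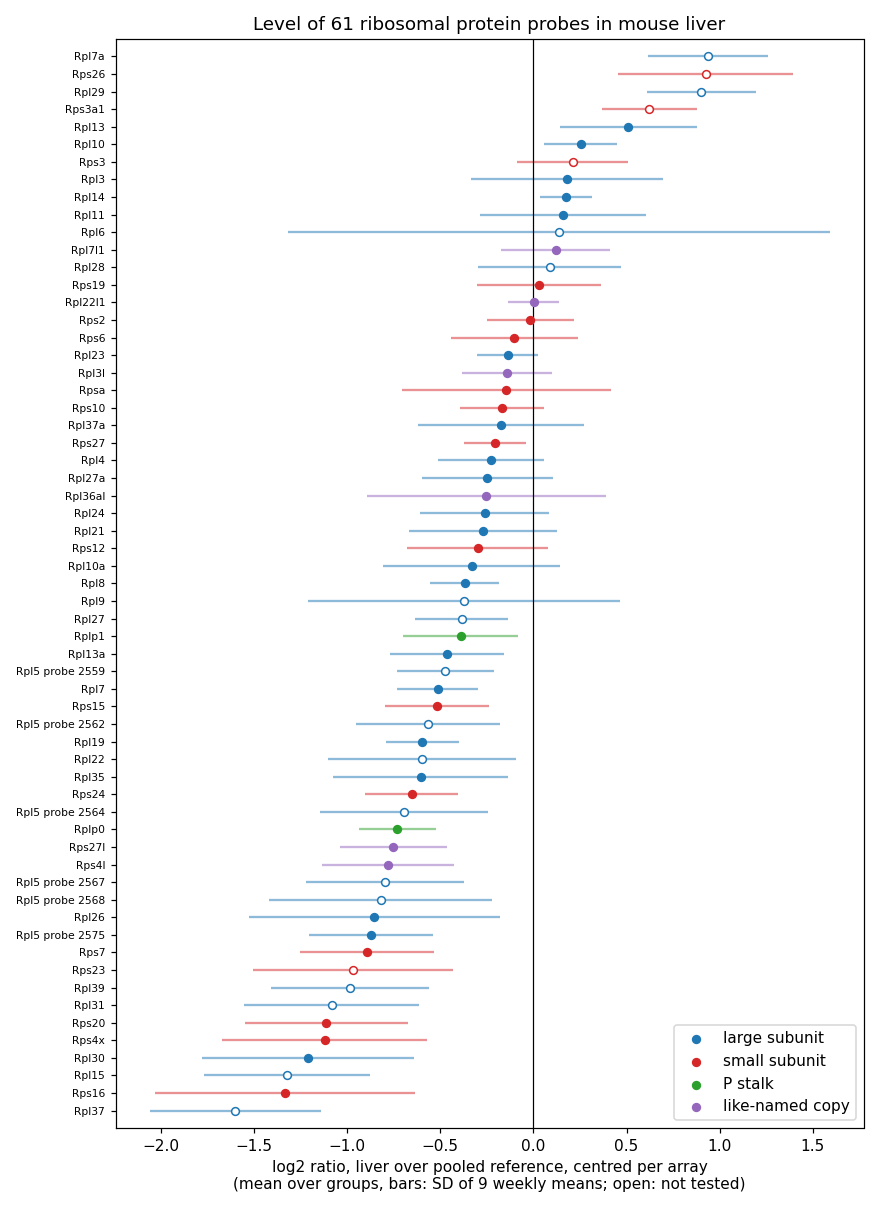
Level of each of the 61 member probes, as log2 ratio of liver over the reference, mean over groups, with bars for the SD of the weekly means (9 where all weeks have a value). Colours give the role, and open symbols mark the 20 probes that were not tested. Levels run from -1.60 (Rpl37) to 0.94 (Rpl7a), with 46 probes left of 0.

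Members with special roles had middling or low levels. Rplp0, the stalk base, had a level of -0.73 ± 0.20 and its partner Rplp1 one of -0.39 ± 0.31. Rpsa, which doubles as a laminin receptor, was at -0.15 ± 0.56, and Rps6, the substrate of the S6 kinases, at -0.10 ± 0.34. Rpl3l, which replaces Rpl3 in heart and skeletal muscle, was at -0.14 ± 0.24, while Rpl3 itself was at 0.18 ± 0.52. Rpl22l1, the relative of Rpl22, was at 0.00 ± 0.14, with Rpl22 at -0.60 ± 0.50 on fewer arrays. The 6 Rpl5 probes, meant to read the same mRNA, ran from -0.87 to -0.47, a measure of how far probes of 1 gene differ here. Across arrays their 15 pairs had a median correlation of 0.32 (range 0.05 to 0.56, over 91 to 219 arrays per pair). The only tested Rpl5 probe followed the others least, with correlations of 0.05 to 0.22, so its values may not stand for the gene.

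High-fat and low-fat diet were compared within each strain, with the weekly group mean as the unit. In C57, none of the 41 members passed the test (limma, adjusted p under 0.05), against 0.196% (15) of all 7643 probes, and 4 of 41 (9.76%) had an unadjusted p under 0.05, against 6.32% of all. Most estimates were nonetheless on the low side: 30 of 41 were negative, with a median of -0.06, where all probes had a median of -0.00021 and 50.2% negative. Among small-subunit genes 12 of 13 were negative (median -0.10), among large-subunit genes 11 of 20 (median -0.03), both stalk genes were negative, and so were 5 of the 6 relatives. The lean to the negative side was kept without centring (34 of 41, but then 69.1% of all probes were negative) and after quantile normalization (32 of 41, 54.3% of all). No test was made of these counts, since members are not independent of each other.

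The lowest estimate in C57 was that of Rpl13a, a large-subunit protein that can leave the ribosome to silence inflammatory mRNAs. Its C57 high-fat weekly means were -0.32, -0.01, -0.29, -1.19, -0.27, -0.76, -0.51, -0.53 and -0.99 for weeks 1, 3, 4, 5, 6, 7, 9, 10 and 11. On the low-fat diet they were 0.07, 0.08, -0.22, -0.65, -0.38, -0.34, -0.20, 0.04 and -0.04. High-fat was lower in 8 of 9 weeks, week 6 being the exception, although both sets of means overlap. The difference was -0.36 ± 0.10 (SE, 9 weeks; limma adjusted p = 0.243). Without week 6 it was -0.42 and passed (adjusted p = 0.0375), as it did when single arrays were taken as replicates (-0.35, adjusted p = 0.00254). Arrays of 1 group and week can share an error, which that second fit ignores. Of all alternative fits 3 passed and 16 did not, with a limma adjusted p of up to 0.614. Week 6 was the only 1 of the 9 weeks whose removal gave a call.

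Next in C57 were Rps16 (-0.27 ± 0.16, limma adjusted p = 0.877), Rps12 (-0.25 ± 0.09, 0.504), Rplp1 (-0.21 ± 0.12, 0.856) and Rps24 (-0.20 ± 0.09, 0.705). Rps12 high-fat was lower in 8 of 9 weeks and Rps24 in 7 of 9. Rps24 is one of the genes mutated in Diamond-Blackfan anaemia, a failure of red cell production. On the positive side stood Rpl13 (0.24 ± 0.11, adjusted p = 0.778), Rpl35 (0.19 ± 0.13, 0.901), Rpl7 (0.15 ± 0.08, 0.822) and Rpl3 (0.14 ± 0.14, 0.968). The Rpl3 estimate rests on week 4, where the weekly difference was 1.46, and without that week it was -0.03. The Rpl35 estimate fell to 0.07 without week 6, where the difference was 1.12.

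In A/J, likewise, none of the 41 members passed (limma), with a background of 0.0262% (2 of 7643), and 1 of 41 had an unadjusted p under 0.05, against 5.42% of all probes. That member was Rplp0, the stalk base and a common qPCR reference. Its difference was -0.23 ± 0.09 (adjusted p = 0.820), with high-fat lower in 7 of 9 weeks and a weekly range of -0.64 to 0.32. Its group means were -0.91 ± 0.27 for A/J high-fat, -0.68 ± 0.30 for A/J low-fat, -0.74 ± 0.29 for C57 high-fat and -0.59 ± 0.17 for C57 low-fat (SD, n = 9 weeks). These 4 ranges overlap widely.

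Other A/J estimates were smaller or noisier. Rps4x, the X-linked copy of Rps4, was lowest at -0.28 ± 0.15 (limma adjusted p = 0.931), followed after Rplp0 by the tested Rpl5 probe (-0.20 ± 0.13, 0.995) and Rps24 (-0.17 ± 0.09, 0.931). Highest were Rpl35 (0.18 ± 0.13), Rpl21 (0.12 ± 0.11), Rpl11 (0.11 ± 0.09) and Rps15 (0.08 ± 0.13), each with an adjusted p of 0.995 or more. All 4 rest on week 6, where the differences were 0.97, 1.03, 0.91 and 1.26 in that order, and without that week they were 0.078, 0.0027, 0.0063 and -0.065. The signs of Rps15 and Rpl21 also turned when group medians were used in place of means. In all, 27 of 41 estimates were negative with a median of -0.04 (all probes -0.00698, 52.9% negative), and the count was 27 without centring and 28 after quantile normalization. Rps24, Rplp1 and Rplp0 were among the members negative in both strains, and Rpl35 and Rpl3 among those positive in both.

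With a looser filter that keeps probes measured on 150 arrays, 58 members could be fitted. Of these none passed in C57 (41 negative) or in A/J (38 negative). Of all 12762 probes in this fit, 12 passed as higher and 2 as lower in C57, and 0 in A/J. Negative estimates made up 50.2% of all probes in C57 and 54.1% in A/J. Among the members that the looser filter adds, Rps26 had the largest C57 estimate (0.45 ± 0.25, limma adjusted p = 0.994) and Rpl37 the largest in A/J (-0.48 ± 0.21, 0.979). The C57 difference of Rps26 was 1.53 at week 4 and from -0.19 to 0.56 at the other weeks with a value. Weeks 1 and 3 had none.

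**Figure D2:**
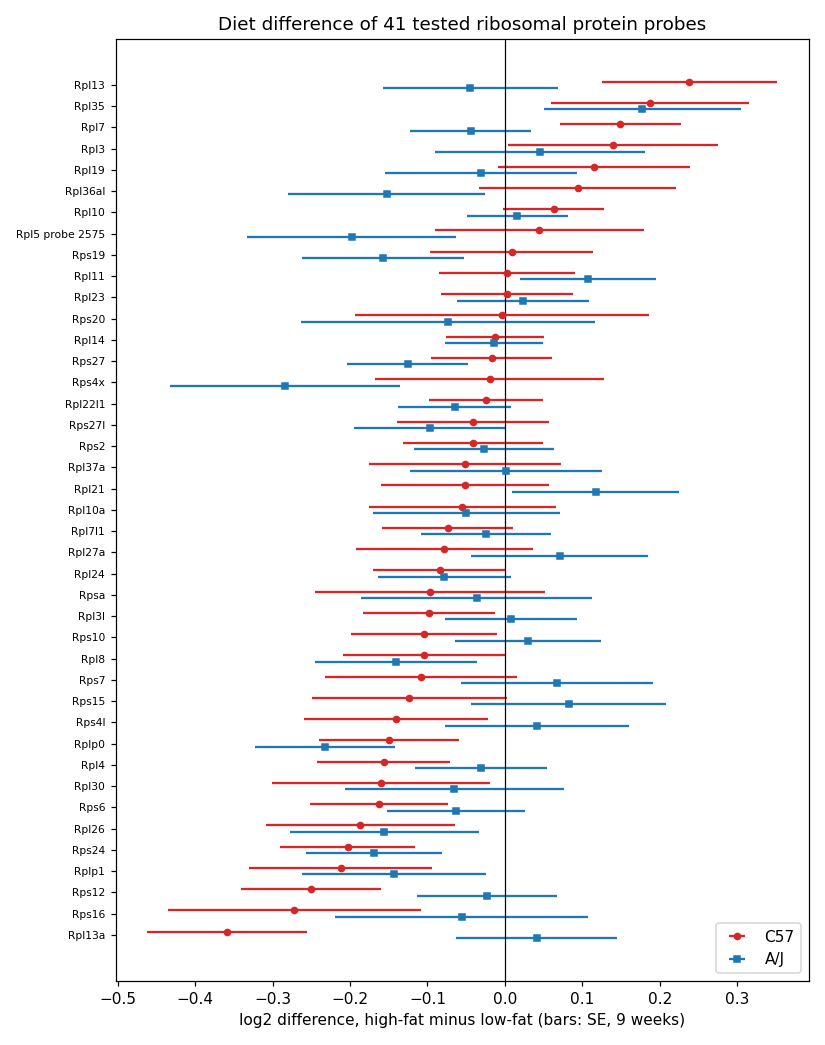
Diet difference (high-fat minus low-fat, log2 scale) of the 41 tested members in C57 (circles) and A/J (squares), with bars for the standard error over 9 weeks. In C57, 30 of 41 lie left of 0, from Rpl13a at -0.36 to Rpl13 at 0.24, and in A/J 27 of 41. None passed the adjusted threshold in either strain.

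Whether the diet difference itself differed between the strains was tested as an interaction. None of the 41 members passed (limma), with a background of 0 of 7643 probes (0%) and 204 probes at an unadjusted p under 0.05. Of the members only Rpl13a was at that level, with a C57 minus A/J difference of -0.40 ± 0.15 (adjusted p = 1.00), negative in 9 of 9 weeks. The A/J diet difference of Rpl13a, by itself, ranged over weeks from -0.50 to 0.59. A difference in diet response between the strains was therefore not detectable for any member with 9 weeks.

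The strains were then compared on each diet. On the low-fat diet 1 of 41 members passed, against 2.39% (183) of all 7643 probes. This was Rpl13a, which was higher in C57. Its A/J low-fat weekly means were -0.36, -0.04, -0.36, -0.91, -1.32, -0.59, -0.45, -0.46 and -0.79, below the C57 low-fat means given above in 9 of 9 weeks. The difference was 0.40 ± 0.10 (SE, 9 weeks; limma adjusted p = 0.0274), a weekly range of 0.12 to 0.93. The 4 group means were -0.18 ± 0.25 for C57 low-fat, -0.54 ± 0.38 for C57 high-fat, -0.54 ± 0.43 for A/J high-fat and -0.59 ± 0.37 for A/J low-fat (SD, n = 9 weeks). C57 low-fat was the highest, and the other 3 differed by less than their spread.

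The Rpl13a call is near the threshold. It was lost with the looser filter (0.42, adjusted p = 0.0633), with medians of arrays in place of means (0.35, 0.179), and without any one of weeks 1 (0.0738), 7 (0.0557), 9 (0.0536), 10 (0.0520) or 11 (0.0924), the direction being the same each time. Other members on the low-fat diet ran from -0.17 for Rps20 to 0.26 for Rps4l, with Rplp1 at 0.25 ± 0.12 (limma adjusted p = 0.422) and Rpl21 at 0.23 ± 0.11 (0.395). The Rps20 value turned to 0.08 without week 10.

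On the high-fat diet none of the 41 passed (limma), against 3.94% (301) of all probes, and 5 (12.2%) had an unadjusted p under 0.05, a smaller share than the 15.2% of all probes. Nearest was Rps10, a protein that is ubiquitinated on collided ribosomes. Its difference was -0.30 ± 0.10 (adjusted p = 0.0796), with C57 lower in 8 of 9 weeks. The C57 high-fat mean of Rps10 was -0.33 ± 0.34 and the A/J high-fat mean -0.04 ± 0.26. Taking single arrays as replicates, 2 members passed on this diet. That fit ignores errors that arrays of the same group and week can share. Its share of all probes is not given here, so the count is not a result about the members.

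**Figure D3:**
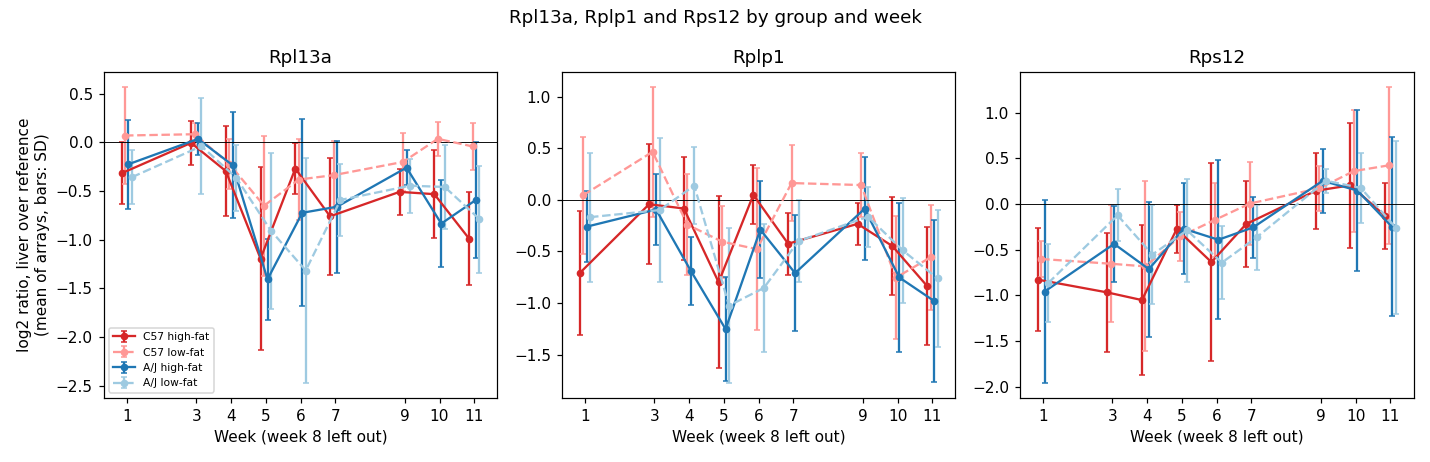
Weekly group means of Rpl13a, Rplp1 and Rps12 (log2 ratio, bars for the SD of the arrays) in the 4 groups of strain and diet. C57 low-fat Rpl13a lies above A/J low-fat in all 9 weeks, A/J Rplp1 is apart between diets at week 4, and Rps12 is lowest at the first weeks in each group.

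The diets were also compared week by week on single arrays, within each strain, at week 0, week 1, weeks 3 to 7 and weeks 9 to 11. In C57 no member passed in any of the 10 weeks (limma), and 1 to 5 members per week had an unadjusted p under 0.05, against 3.37% to 15.3% of all probes. Of all probes 0.176% passed at week 6, 0.0125% at week 10, 0.0093% at week 5 and 0.00852% at week 9, and 0% at the other weeks. In A/J 1 member passed in 1 week, Rplp1 at week 4, where 1.58% (148 of 9368) of all probes passed. In the other 9 A/J weeks 0% to 0.0571% of all probes and no member passed, with 0 to 6 members at an unadjusted p under 0.05, against 2.58% to 13.1% of all probes.

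At week 4 the stalk gene Rplp1 was lower on the high-fat diet in A/J. With arrays centred on the probes tested that week, the 10 high-fat arrays ran from -1.29 to -0.04 with a median of -0.70. The 9 low-fat arrays with a value ran from -0.34 to 1.12 with a median of 0.18. The sets overlap only at their edges, and the difference was -0.85 ± 0.18 (limma adjusted p = 0.0265). In C57, with the centring used for the weekly means, the same week gave means of -0.08 on high-fat and -0.24 on low-fat. The A/J call was lost when equal sample numbers were taken as a block (-0.75, adjusted p = 0.104) and when neighbouring sample numbers were averaged (-0.80, 0.144).

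Other members leaned the same way in that week. Of 46 tested, 12 (26.1%) had an unadjusted p under 0.05, 10 of them lower on high-fat, while 20.3% of all probes were at that level. They include Rps15 (-0.90 ± 0.24, limma adjusted p = 0.0508), Rpl37a (-0.78 ± 0.21, 0.0539), Rpl8 (-1.24 ± 0.45, 0.126) and Rps16 (-0.99 ± 0.37, 0.127), with Rps4l (0.78 ± 0.30, 0.137) and Rps20 (0.70 ± 0.29, 0.176) on the other side. The median of the 46 was -0.13, and that of all probes -0.03. Most of the probes of any gene that passed in A/J at week 4 were lower on high-fat too. The lean to lower values is therefore not shown to be particular to the members. At week 6 the A/J members were split, 14 of 27 positive and 13 negative with a median of 0.09. All 6 members (22.2%) at an unadjusted p under 0.05 were higher on high-fat, where 13.1% of all probes were at that level, led by Rps15 (1.22 ± 0.36, limma adjusted p = 0.252). The Rps15 values of these weeks have opposite signs, and neither passed.

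Differences between weeks were detected in more members than those of diet or strain, in tests of unlike form. In an F test over the week terms, added after the data had been seen, 40 of 41 members (97.6%) passed, against 86.9% of all probes. The exception was Rpl19 (limma adjusted p = 0.0643). The median range of the 9 weekly values was 0.99 for the members and 0.71 for all probes. Such a range cannot be set against the diet and strain differences, which are averages over the weeks. The labels give no hybridisation batch, so an effect of the week and one of a batch run in that week cannot be told apart.

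As a group, the 41 members were lowest at the first week and highest at week 9. The median over members per array, averaged over the 4 groups, was -0.56 at week 1, -0.33 at week 3, -0.40 at week 4, -0.33 at week 5, -0.22 at week 6, -0.19 at week 7, -0.11 at week 9, -0.24 at week 10 and -0.44 at week 11. All 4 groups of strain and diet had their lowest value at week 1, except A/J high-fat, where week 4 (-0.56) was as low as week 1 (-0.55), and all 4 were higher at week 9 than at week 11. Week 9 was the highest in 3 groups, while C57 high-fat was highest at week 6 (-0.13, against -0.16 at week 9). The spread of arrays within a group and week was 0.08 to 0.38 (SD), so neighbouring weeks overlap. Hepatocyte markers also varied, from a median of 0.61 at week 3 to 1.54 at week 6, and so did the number of probes measured per array, from 8172 at week 6 to 13366 at week 9. Their part in the weekly levels was not tested.

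**Figure D4:**
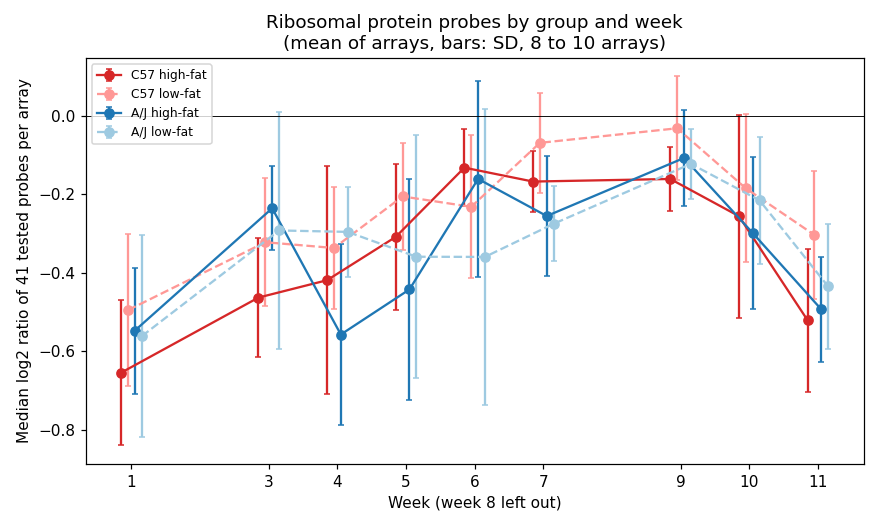
Median log2 ratio of the 41 tested members per array, as mean over the arrays of each group (8 to 10) with bars for the SD, by week for C57 and A/J on each diet. All groups are higher at week 9 (-0.16 to -0.03) than at week 1 (-0.65 to -0.49) and lower again at week 11, but differ in between, where A/J high-fat goes from -0.24 at week 3 to -0.56 at week 4.

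Single members did not all share this course. Comparing weeks 5 to 7 with weeks 1, 3 and 4, 28 of 41 were higher in the later block and 13 lower, with a median of 0.23, while 52.5% of all probes were higher with a median of 0.03. In 22 members all 4 groups were higher and in 9 none was. Without centring, the median of all probes was -0.12 and that of the members 0.07, with 22 of 41 higher against 38.3% of all probes. After quantile normalization 27 of 41 were higher, against 49.2%, with a member median of 0.25. Of mitochondrial ribosomal protein probes 16 of 38 were higher, with a median of -0.06.

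Members low at first and higher later included proteins of both subunits. Rps16 went from -2.28 at week 1 to -0.48 at week 7, with block means of -2.19 and -0.79. Rpl26, which can bind the mRNA of the tumour suppressor Trp53, went from block means of -1.62 to -0.24, and Rpl36al, Rpl3, Rps4x and Rpl30 differed by 1.01 to 1.31 in the same direction. Their direction was the same without centring and after quantile normalization. Among the untested members Rpl9 moved most in this direction, from -1.38 to 0.36.

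The opposite course was seen in Rpsa, Rpl11, Rpl21, Rpl13a, Rps19, Rpl3l and Rps2, again under all 3 scalings. Rpl11, which with Rpl5 binds the ubiquitin ligase Mdm2 when ribosome assembly fails, was at 0.91 at week 1 and -0.48 at week 5. Rpsa was at 0.90 at week 4 and -0.91 at week 6. Rps19, the gene most often mutated in Diamond-Blackfan anaemia, went from 0.54 at week 1 to -0.32 at week 7. The largest course of any member was that of Rpl6, which was not tested and was measured on only 213 arrays. It was at 1.89 at week 1, -0.01 at week 7 and -2.23 at week 11. At week 11 Rpl6 had no A/J low-fat value, so that mean does not cover the same groups as week 1. Apart from the relatives Rpl36al and Rpl3l, the members of both courses are proteins that the ribosome holds in equal number. Their readings nonetheless moved in opposite directions between the same arrays.

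**Figure D5:**
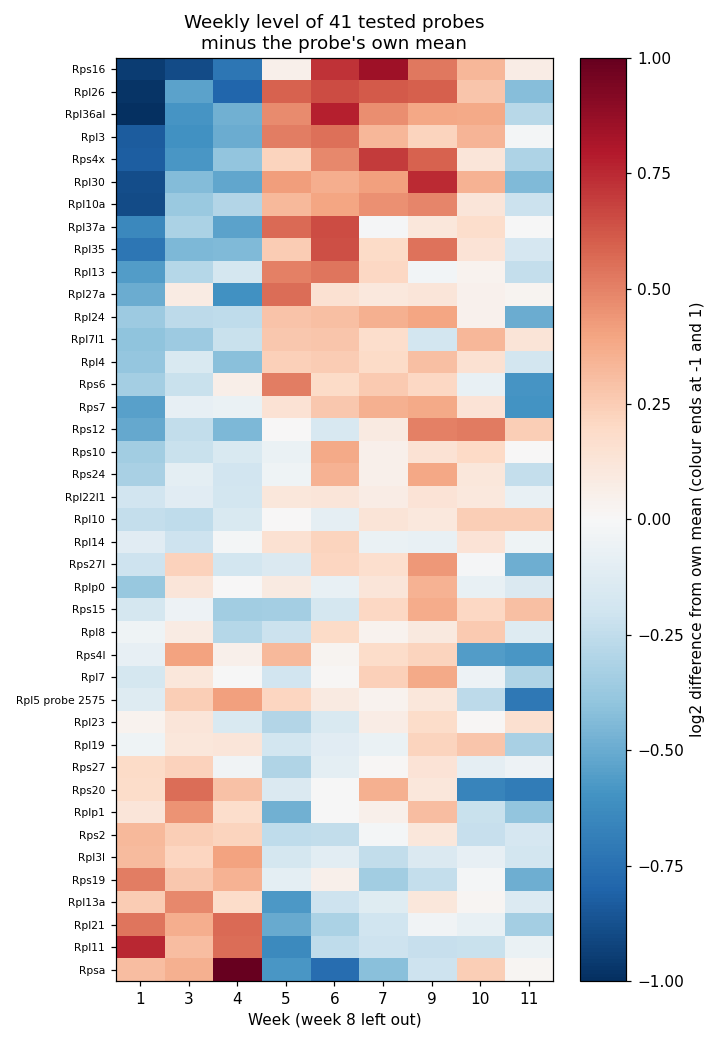
Weekly level of each of the 41 tested members minus the member's own mean (log2 scale, colour from -1 to 1, mean over the 4 groups), ordered by the difference between weeks 5 to 7 and weeks 1, 3 and 4. Rps16, Rpl26 and Rpl36al at the top are low in weeks 1 to 4 and high later, and Rpl21, Rpl11 and Rpsa at the bottom show the opposite.

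A steady drift was asked for with a straight line against week in each group. No member passed in any group (limma), with backgrounds of 0.55% in C57 high-fat, 0% in C57 low-fat, 0.0262% in A/J high-fat and 0% in A/J low-fat. At an unadjusted p under 0.05 there were 9, 9, 13 and 8 of 41 members in these groups, against 19.9%, 15.7%, 17.7% and 14.7% of all probes. Nearest was Rps12, whose slope was positive in all 4: 0.12 ± 0.03 per week in C57 high-fat (adjusted p = 0.0636), 0.12 ± 0.02 in C57 low-fat (0.0514), 0.09 ± 0.03 in A/J high-fat (0.136) and 0.07 ± 0.03 in A/J low-fat (0.300). The week 1 means of Rps12 were -0.83, -0.60, -0.96 and -0.87 in that order, and the week 10 means 0.21, 0.36, 0.15 and 0.18. Rps19 had negative slopes in all 4 groups, from -0.12 (A/J high-fat) to -0.07. Without week 5, 3 members passed in C57 high-fat, the only week whose removal gave a call there. The share of all probes that passed in that fit is not given here, so the count is not a result about the members.

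At week 0, for which the labels already give a diet, fewer probes were measured, a median of 5007 per array against 11357.5 on the arrays of the 9 weeks. The median array of each group, by its member median, was at -1.09 in A/J high-fat, -0.26 in A/J low-fat, -0.78 in C57 high-fat and -0.53 in C57 low-fat. In C57 low-fat 2 arrays stood at -5.83 and -5.91, each with 1 member measured among 194 and 415 probes, and the other 8 ran from -1.09 to -0.20. Only 14 members could be compared between diets at week 0 in each strain, and none passed (limma). At an unadjusted p under 0.05 there was 1 in C57, against 4.45% of all probes, and 2 in A/J, against 12.1%.

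How closely the members follow each other was described by correlation across the 350 arrays. The 820 pairs of tested members had a median correlation of 0.11, with 66.3% positive and a range of -0.57 to 0.73. With each group's mean removed the median was 0.04, with 62.9% positive. Pairs among 500 other probes had medians of -0.00300 and -0.00447. The closest pairs within groups were Rpl11 with Rpl23 (0.51, 335 arrays) and Rps15 with Rps16 (0.51, 332 arrays), then Rpl13a with Rpl21 (0.48, 323 arrays). These correlations share arrays, labelling and scaling, and are given without a test.

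Genes around the ribosome were taken as lists of known function. Of 4 listed ribosomal components that the naming rule leaves out, only 1 was measured, Fau, which encodes a small-subunit protein. Fau had a level of -0.14 and diet estimates of -0.10 in C57 and -0.20 in A/J. Of 13 tested translation factors and other mRNAs of the pyrimidine-tract class, 1 was higher on high-fat in C57 (Eif3f, an initiation factor subunit, 0.53, limma adjusted p = 0.00938) and none in A/J. Between the strains on high-fat 2 passed, both higher in C57 (Eif4a2, 0.56, adjusted p = 0.00420, and Nap1l1, 0.28, 0.0302), and none did on low-fat. Of 17 genes of ribosome biogenesis and 7 of mTOR signalling none passed in any of these comparisons. Of 7 transcription regulators 1 passed, Maf1, the repressor of RNA polymerase III, lower in C57 on high-fat (-0.35, limma adjusted p = 0.0425).

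Across blocks of weeks the 17 measured translation factors had a median of -0.03 in weeks 1, 3 and 4, of 0.05 in weeks 5 to 7 and of -0.00039 in weeks 9 to 11. Single genes of this list, picked after their values were seen, moved further. Tpt1, a classic pyrimidine-tract mRNA, was at -0.71 in weeks 1, 3 and 4, at 0.39 in weeks 5 to 7 and at -0.28 in weeks 9 to 11. Btf3 went from -1.41 to -0.43 and Pabpc1, the poly(A)-binding protein, from -1.16 to -0.24, while Naca went from 0.17 to -0.25 and Eef2 stayed between 0.23 and 0.34. Beside the strain result for Rpl13a, 1 of 7 hepatocyte markers also passed on low-fat, Trf, which was lower in C57 (-0.52, limma adjusted p = 0.000353). In the diet comparisons, where the members had medians of -0.06 in C57 and -0.04 in A/J, none of the tested markers of other cell types passed. The 5 skeletal muscle markers were all negative in both strains (medians -0.11 and -0.12), and so were the 3 stellate and matrix markers (-0.11 and -0.13). Of the 3 macrophage and leukocyte markers, 3 were positive in C57 (median 0.19) and 2 in A/J (0.21). Their part in the members' values was not tested.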

How the data were processed

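RNA of mouse liver was measured on 435 spotted 2-colour arrays. The authors' deposited values are linear ratios of liver over reference with a mean of 1 per array; the direction and scale were read from the values. Image analysis, background subtraction and spot filters are not given in the sources used here. Among measured values, 0.251% were below 0 and 0.271% equal to 0, and 42.4% of cells were empty. From these, log2 of each positive ratio was computed, with no pseudocount, and other values were taken as not measured. In 2 pairs of A/J high-fat arrays the columns were identical, and each pair was counted once, leaving 433. Arrays were centred on their median over the tested probes (present on 70% of arrays or more, with 3 values or more per group). Weekly group means entered limma 3.58.1 (R 4.3.3) with 4 strain-diet levels and week terms, single arrays were used for weekly diet differences, with Benjamini-Hochberg adjustment over all probes tested and a threshold of 0.05. The code was tested on simulated data. Signal intensities were not used here, so only the number of arrays gives the precision.

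The members and gene lists were chosen with earlier results of these data known. Named are members that passed, Rplp0, Rplp1, Rpsa, Rps6, Rpl13a, Rps15, Rpl3l and Rpl22l1, and the 4 highest and 4 lowest by level and in the C57, A/J and low-fat strain comparisons. Members named beyond these, among them Rpl26, Rps19, Rpl6 and Rpl9 for their weekly course, were chosen after their values were seen. Of 14717 probes with a gene entry 14711 have 1 symbol, 6 have several, and 14416 matched RefSeq's mouse gene table of GRCm38.p6, used for names.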

Additional observations from a re-analysis of the deposited data

Results flagged for a closer look

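The lowest or highest sample lay far from the rest in 11 of the sets examined. These were 40 groups of arrays by their member median, 116 sets of weekly means of named members and 2 sets of single arrays. Chance alone would flag about 5% of these sets, not far below the share found.

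By the median of the members per array, 3 groups held 1 low array each. The lowest A/J low-fat array was at -1.01 in week 3 (next -0.54) and at -1.31 in week 6 (next -0.54). The lowest C57 low-fat array of week 10 was at -0.67 (next -0.22). The week 6 array had only 8 members measured among 2183 probes, so its median rests on few values. The week 3 array had 26 members among 7281 probes, and the week 10 array 32 among 8675.

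Among weekly means, the lowest of C57 low-fat was -1.03 for Rps15 (next -0.54), -3.20 for Rps20 (next -1.31) and -0.74 for Rps3a1 (next 0.73, 5 weeks only). The lowest of A/J high-fat was -0.35 for Rpl22l1 (next -0.04) and -2.20 for the tested Rpl5 probe (next -1.29). For Rps4l the lowest A/J low-fat mean was -2.03 (next -1.12). For Rps26 the highest C57 high-fat mean was 3.06 (next 1.21).

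Of the single arrays behind the A/J week 4 difference of Rplp1, the highest low-fat array was at 1.12 and the next at 0.30.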

How the results depend on the processing

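Under the alternatives 680 values kept their direction and their side of the threshold, 16 newly passed it or gained calls, 18 no longer passed it or lost calls, and 5 changed sign. C57 minus A/J on low-fat, 1 member in the report, had 0 with the looser filter and with medians of arrays, and 0 to 1 with each week left out. The C57 diet count, 0 in the report, was 1 with single arrays as replicates and 1 with single arrays and a replicate block (Rpl13a both times, -0.36 with the block, adjusted p = 0.00206), and 0 to 1 with each week left out. C57 minus A/J on high-fat was 2 with single arrays and 0 to 1 with each week left out. The C57 high-fat slope count was 0 to 3 with each week left out. The weekly A/J count, 1 in the report, was 2 without centring, 2 after quantile normalization, 0 with a replicate block and 0 with neighbouring sample numbers averaged; at week 4 it was 1 to 3 with each array left out. Signs turned for Rps15 in A/J (-0.053 with medians of arrays, and -0.065 to 0.20 with each week left out, lowest without week 6), Rpl21 in A/J (-0.041 with medians of arrays), Rpl3 in C57 (-0.026 to 0.19, lowest without week 4) and Rps20 between strains on low-fat (-0.30 to 0.077, highest without week 10). The cause was not tested. Shares of all probes that passed in these alternative fits are not given here, so the counts are not results about the members.

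Equal sample numbers were checked as a possible pairing of high-fat with low-fat arrays. Deviations of same-numbered arrays correlated from -0.33 to 0.36 in C57 (82 pairs, median 0.04, 30 over 0.1). In A/J they correlated from -0.57 to 0.46 (77 pairs, median -0.02, 14 over 0.1). Within a week the A/J low-fat numbers lag behind the high-fat ones, as numbers also differ in late C57 weeks. The check therefore cannot tell whether arrays were paired in another order. Limits are the unknown batch of each week, the 20 members measured too thinly to test, the lack of a dye swap, and probes that near-identical genes may share.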
